A study of Mus musculus with 12 samples.

Results

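Aminoacyl-tRNA synthetases are the enzymes that attach each amino acid to its transfer RNA, and they were followed here in muscle stem cells of mouse before and after muscle injury. The members were the genes of the deposited table whose symbol is that of a synthetase, a letter followed by ars or ars2, together with Eprs, Farsa and Farsb. This gave 37 of the 30154 genes, 20 of them cytosolic and 17, those whose symbol ends in 2, mitochondrial. All 37 passed the filter on low counts that left 15890 genes for testing.

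A cell reads messages in the cytosol and in its mitochondria, and each compartment needs its own charged transfer RNAs. Most amino acids therefore have a pair of nuclear genes, a cytosolic synthetase such as Rars for arginine and a mitochondrial one such as Rars2. Gars (glycine) and Kars (lysine) serve both compartments from a single gene, Eprs joins the glutamate and proline activities of the cytosol in a single protein, and Farsa and Farsb are the subunits of the cytosolic phenylalanine enzyme. Several cytosolic synthetases sit in a large complex held together by the scaffold proteins Aimp1, Aimp2 and Eef1e1. Transcription of many cytosolic synthetase genes is known to be raised by Atf4, a factor made when amino acids are scarce. Sestrins are stress-induced proteins that restrain the growth kinase complex mTORC1, and Sesn2 binds leucine.

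The cells were labelled as muscle stem cells of C57BL/6J mice aged 2 to 3 months, sorted by flow cytometry from 3 hind limb muscles, the tibialis anterior, gastrocnemius and quadriceps. The 6 groups were wild type and Sestrin1,2 Knockout, each before injury (day 0) and 7 and 21 days after injury, with 2 libraries per group, so every group value has n = 2. The sources used here name neither the kind of injury nor the sex, and do not say whether replicates are separate animals. P-values therefore measure the spread between these libraries, which may be technical.

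Libraries held 28396862 to 38950614 estimated counts. In CPM, which are counts scaled to a common library size, Sesn2 of the uninjured libraries was at 75.1 and 84.4 (wild type) and at 5.47 and 7.03 (knockout). Its day 7 levels were 44.9 and 47.4 against 2.36 and 1.92. Sesn1, the other gene of the label, was lower in knockout but not lost, at 70.4 and 68.6 against 46 and 45.8 CPM before injury and at 84 and 67.9 against 28.4 and 22.4 CPM after 7 days. On day 21 Sesn2 was at 8.92 in wild-type replicate 1 and 82.1 in wild-type replicate 2, and at 9.86 in knockout replicate 1 and 108 in knockout replicate 2. On that day Sesn1 was at 43.7 and 78.3 CPM under the wild-type label and 41.7 and 67.2 CPM under the knockout label. The libraries labelled wild-type replicate 1 and knockout replicate 2 of day 21 thus go against their genotype labels, and genotype at day 21 is given by label only. All 10 muscle stem cell markers listed were detected in each library, with a summed level of 591 to 1363 TPM, the unit that also divides by transcript length. The 6 markers of fibro-adipogenic cells, another resident cell type of muscle, were also detected, at a sum of 5313 to 11450 TPM. Most of that sum was Dcn and Col1a1. Pdgfra of the same list was at 3.45 to 21.3 TPM, and Pax7 of the stem cell list at 3.14 to 19.2 TPM. In such bulk samples fewer cells of a type and less RNA per cell cannot be told apart.

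Cytosolic synthetases were about 5 times as abundant as mitochondrial ones by level per length. Summed TPM of the cytosolic class lay between 785 and 1374 across the 12 libraries and that of the mitochondrial class between 150 and 247, and their ratio lay between 4.61 and 5.81. Both sums were lowest in wild type at day 0 and highest in the day 7 libraries. In wild type at day 0 the cytosolic sum was 785 and 815 TPM and the mitochondrial sum 150 and 154 TPM. In knockout at day 0 they were 857 and 907 TPM, and 185 and 186 TPM. At day 7 the cytosolic sum was 1340 to 1374 TPM in wild type and 1301 to 1346 TPM in knockout, and the mitochondrial sum 245 to 247 TPM and 224 to 246 TPM. The day 7 libraries of the genotypes overlapped in both sums, whereas at day 0 both knockout libraries lay above both wild-type libraries. At day 21 the cytosolic sum was 963 and 1081 TPM under the wild-type label and 1017 and 1095 TPM under the knockout label, and the mitochondrial sum 166 to 200 TPM and 178 to 189 TPM. These levels are a description of the members, with no test.

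**Figure D1:**
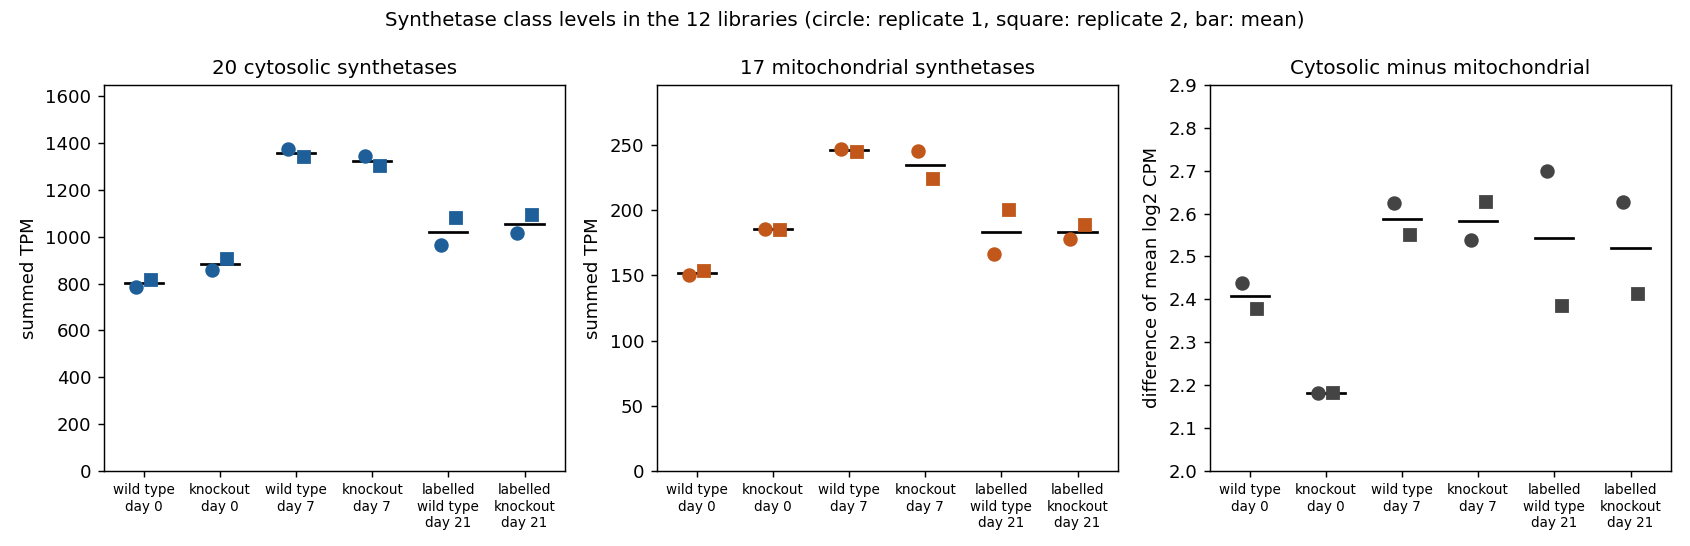
Left and middle, the summed level in TPM of the 20 cytosolic and the 17 mitochondrial synthetases in each of the 12 libraries, by genotype label and day. Right, the mean log2 CPM of the cytosolic class minus that of the mitochondrial class, on an axis that does not start at 0. Circles are replicate 1, squares replicate 2 and bars the mean of both. The sums are highest at day 7, and the difference between the classes is smallest in the knockout libraries of day 0, at 2.18 in both.

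Within the cytosolic class the order of mean TPM over the 12 libraries was led by Eprs at 150.6, with a range of 84 to 225 TPM. Dars (aspartate) followed at a mean of 95.5 TPM and Gars at 90.9 TPM. The order differed between groups: in uninjured wild type Dars (87.1 ± 2.12 TPM, SD, n = 2) and Eprs (85.9 ± 2.80 TPM) did not differ beyond their spread. The ranges of Dars, 67.9 to 145 TPM, and Gars, 67 to 139 TPM, overlapped over most of their length. The lowest means were those of Qars (glutamine) at 22.8 TPM and Nars (asparagine) at 17.5 TPM. Nars was also the least steady cytosolic member, from 5.22 to 25.5 TPM, and the wild-type replicates of day 21 were at 50.7 and 9.44 CPM. Within the mitochondrial class Yars2 (tyrosine), Iars2 (isoleucine) and Rars2 led with means of 28.2, 26.3 and 25.5 TPM, and their ranges overlapped. Ears2 (glutamate), Wars2 (tryptophan), Mars2 (methionine) and Pars2 (proline) had means of 3.67, 2.28, 1.43 and 1.11 TPM. Of these Pars2 also had few counts, with group means of 1.08 to 2.54 CPM.

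For a subset of the cytosolic genes the promoter holds the letters of the CEBP-ATF response element, to which Atf4 binds in target genes. These windows are shown because Atf4 is a known regulator of many genes of the class. Windows from 250 bases before to 50 bases after the gene start (RefSeq, GRCm38.p6) were used for 26 members, 12 cytosolic and 14 mitochondrial. TGATGNAA was found, on either strand, in 5 of the 12 cytosolic windows, those of Aars, Gars, Iars, Tars and Yars, and in 0 of the 14 mitochondrial windows. It was found in 3.97% of all 32851 promoter windows of that length. Capitals mark the match, each sequence runs 5′ to 3′ on the strand of its gene, and a match is a description, not a binding site.
Aars, chr8:111033704-111033763, plus strand: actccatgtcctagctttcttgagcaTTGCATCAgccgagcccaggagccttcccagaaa
Aars, chr8:111033825-111033871, plus strand: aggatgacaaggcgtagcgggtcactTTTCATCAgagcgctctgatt
Gars, chr6:55037945-55038004, plus strand: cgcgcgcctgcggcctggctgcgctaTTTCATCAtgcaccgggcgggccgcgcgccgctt
Iars, chr13:49682111-49682159, plus strand: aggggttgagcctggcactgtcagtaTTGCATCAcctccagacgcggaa
Tars, chr15:11399640-11399699, minus strand: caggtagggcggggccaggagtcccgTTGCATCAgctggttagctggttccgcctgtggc
Yars, chr4:129189880-129189932, plus strand: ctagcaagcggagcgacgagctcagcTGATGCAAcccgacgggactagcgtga

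The other letters searched, on both strands, were CACGTG of the E-box, CCAAT of the binding box of NF-Y, the ETS factor letters CCGGAA, the element TCTCGCGA and the palindromic core that NRF1 binds. CACGTG was in 5 of the 26 windows (Aars, Ears2, Farsb, Iars and Tars) and in 7.15% of all windows, so Aars, Iars and Tars held both it and the CEBP-ATF letters. CCGGAA was in 11 of the 26, 4 cytosolic and 7 mitochondrial, against 14.9% of all windows. CCAAT was in 12 of the 26, 6 of each class, against 37.4% of all windows. TCTCGCGA was in the window of Dars only, against 0.734%, and the NRF1 core was in none of the 26, against 0.971%.

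Injury was followed by higher cytosolic synthetase expression at day 7 in wild type. By edgeR's quasi-likelihood test with Benjamini-Hochberg adjustment over all genes tested, 15 of 20 cytosolic members rose and 0 fell, where 25.8% of all genes tested rose and 21.2% fell. Of the 17 mitochondrial members 7 rose and 0 fell. The median log2 fold change was 0.53 for the cytosolic class, 0.35 for the mitochondrial class and 0.06 for all genes tested. In linear terms the mean log2 CPM of the cytosolic class was 1.505 times as high at day 7 as at day 0, and its summed TPM 1.70 times. For the mitochondrial class these folds were 1.33 and 1.62. On the log2 TPM scale the median change of all genes with at least 1 TPM in 2 libraries was 0.24 or 0.28, by pseudocount. It was 0.05 with no filter.

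The wild-type rises with the smallest adjusted p were in the synthetases for arginine, isoleucine, threonine and valine. Iars went from 34.4 and 36.6 CPM to 92.9 and 84.1 CPM, a log2 fold change of 1.32 ± 0.13 (SE; edgeR adjusted p = 2.9e-05). Rars went from 44.5 and 47.5 to 93.7 and 92.2 CPM, a log2 fold change of 1.01 ± 0.09 (adjusted p = 1.5e-05). Both genes at least doubled. Neither overlapped between days, and 79.7% of all genes tested did not overlap either. Tars rose by 0.80 ± 0.09 (adjusted p = 7.2e-05) and Vars by 1.14 ± 0.14 (adjusted p = 9.9e-05). Of the genes that serve both compartments, Kars rose from 70.2 and 64.5 to 104 and 99.9 CPM (log2 fold change 0.60, adjusted p = 0.00071). Gars rose from 119 and 126 to 164 and 163 CPM (0.41, adjusted p = 0.0049), a call that was lost without wild-type replicate 1 of day 0 (adjusted p = 0.056). The remaining cytosolic members that rose were Lars at 0.88, Farsa at 0.83, Cars at 0.75, Eprs at 0.71, Qars at 0.56, Wars at 0.50, Dars at 0.49, Yars at 0.43 and Aars at 0.31 (log2). Farsb, Nars, Mars, Hars and Sars did not pass the test, with log2 fold changes of 0.11 to 0.29. Of the 15 rises 10 were called whichever single library was left out, and those of Aars, Dars, Gars, Qars and Wars were not. The calls of Dars and Wars were lost without either wild-type replicate of day 0 or wild-type replicate 1 of day 7, that of Aars without any wild-type library of these days, and that of Qars without any one of 10 of the 12 libraries (adjusted p up to 0.18).

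Among the mitochondrial members Yars2 had the smallest adjusted p in wild type. It went from 19.2 and 19.7 CPM at day 0 to 41.1 and 40.2 CPM at day 7 (log2 fold change 1.06 ± 0.15, edgeR adjusted p = 0.00025). Sars2, for serine, rose from 8.67 and 7.79 to 16.5 in both libraries (1.00 ± 0.21, adjusted p = 0.0034). Both genes doubled. Rars2, the partner of Rars, rose from 17.9 and 16.4 to 28.7 and 28 CPM (0.73 ± 0.16, adjusted p = 0.0036). The low-count Ears2 rose from 3.44 and 3.56 to 8.59 and 7.97 CPM (1.24 ± 0.28, adjusted p = 0.0042). Tars2 at 0.70, Aars2 at 0.56 and Hars2 at 0.49 (log2) were the other rises, that of Hars2 lost without wild-type replicate 1 of day 7 (adjusted p = 0.054). The mitochondrial partners of the strongest cytosolic members did not all pass the test. Iars2 was at 68.6 and 65.7 CPM and then 73.1 and 80.1 CPM (0.19 ± 0.11, adjusted p = 0.20), and Vars2 had a log2 fold change of 0.12 ± 0.19 (adjusted p = 0.64). Sars, the cytosolic partner of Sars2, had a log2 fold change of 0.11 ± 0.09 (adjusted p = 0.35). Iars and Iars2 therefore ran apart, as did Sars and Sars2, with the cytosolic gene higher in the first pair and the mitochondrial in the second; these differences within pairs were not tested.

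In the knockout most cytosolic members again rose by day 7, while the mitochondrial members were split between higher and lower values. Of 20 cytosolic members 15 rose and 0 fell, where 24.7% of all genes tested rose and 22.2% fell. Of 17 mitochondrial members 3 rose and 1 fell, 17.6% and 5.88%, with 9 values above 0 and 8 below. The medians of the log2 fold change were 0.49 for the cytosolic class and 0.00 for the mitochondrial class, against 0.03 for all genes tested. The folds of mean log2 CPM in linear terms were 1.41 for the cytosolic and 1.07 for the mitochondrial class, and those of summed TPM 1.501 and 1.27. In knockout the median log2 TPM change of all genes was 0.12 or 0.14 with the filter on TPM and 0.01 without it.

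Rars again had the smallest adjusted p in the knockout, moving from 42.3 and 44 CPM to 87.5 and 86 CPM (log2 fold change 1.01 ± 0.09, edgeR adjusted p = 1.2e-05). Yars rose from 56.3 and 53.2 to 90.7 and 98.5 CPM (0.79 ± 0.08, adjusted p = 3.6e-05). Its wild-type rise from 68.7 and 66.6 to 92.2 and 90.5 CPM began from a higher level and ended at a similar one. Tars rose by 0.66 ± 0.09 (adjusted p = 0.00022) and Kars by 0.67 ± 0.10 (adjusted p = 0.00031) on the log2 scale. Gars rose from 137 and 141 to 218 and 200 CPM (0.59 ± 0.09, adjusted p = 0.00051). Iars rose by 0.85, Cars by 0.77, Vars by 0.74, Dars by 0.57, Farsa and Farsb by 0.49 each, Sars by 0.47, Lars by 0.45, Eprs by 0.41 and Hars by 0.36 (log2). Of these calls Farsa, Farsb and Lars were lost without knockout replicate 1 of day 0, Farsb and Lars also without knockout replicate 1 of day 7, and Farsb and Hars without knockout replicate 2 of day 0 (adjusted p up to 0.092). Aars, Mars, Nars, Qars and Wars did not pass the test. Wars, the tryptophan enzyme, was at 71.3 and 77.6 CPM and then 85.5 and 63.3 CPM, so the day 7 libraries lay on both sides of those of day 0.

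In all 12 cytosolic members were called higher in both genotypes: Cars, Dars, Eprs, Farsa, Gars, Iars, Kars, Lars, Rars, Tars, Vars and Yars. The share of all genes tested that rose in both genotypes was not counted, so this overlap is a description only. Of the 5 genes with the CEBP-ATF letters, Gars, Iars, Tars and Yars rose in both genotypes and Aars passed the test in wild type, with a log2 fold change of 0.18 ± 0.09 in knockout (adjusted p = 0.12). The 7 other cytosolic genes with a window used were not compared with them by a test. Of the 8 members that sit in the multisynthetase complex, Dars, Eprs, Iars, Kars, Lars, Mars, Qars and Rars, 7 rose in wild type and 6 in knockout. Of the 12 outside the complex 8 rose in wild type and 9 in knockout, where 25.8% and 24.7% of all genes tested rose.

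The mitochondrial members called higher in the knockout, Rars2, Sars2 and Yars2, were all among the 7 called in wild type. Rars2 rose from 15 and 13.3 to 28.3 and 28.6 CPM (log2 fold change 1.01 ± 0.16, edgeR adjusted p = 0.00048) and Yars2 from 16.4 and 20.1 to 33 and 33.5 CPM (0.87 ± 0.15, adjusted p = 0.00082). Sars2 rose from 7.78 and 8.93 to 16.6 and 13.4 CPM (0.85 ± 0.22, adjusted p = 0.0085), and its call was lost without knockout replicate 1 of day 0 or of day 7 (adjusted p up to 0.070). Cars2, for cysteine, fell, from 15.2 and 19.8 to 10 and 10.4 CPM (log2 fold change -0.77 ± 0.17, adjusted p = 0.0039). In wild type it was at 12.4 in both libraries and then at 11.1 and 10.1 CPM (-0.23 ± 0.17, adjusted p = 0.30). Its cytosolic partner Cars went the other way, from 39.4 and 39.5 to 66.6 and 68.2 CPM in knockout (0.77 ± 0.12, adjusted p = 0.00038) and from 34.9 and 41.6 to 69.8 and 58.4 CPM in wild type. Among the pairs in knockout this was the one with both genes called and in opposite directions.

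**Figure D2:**
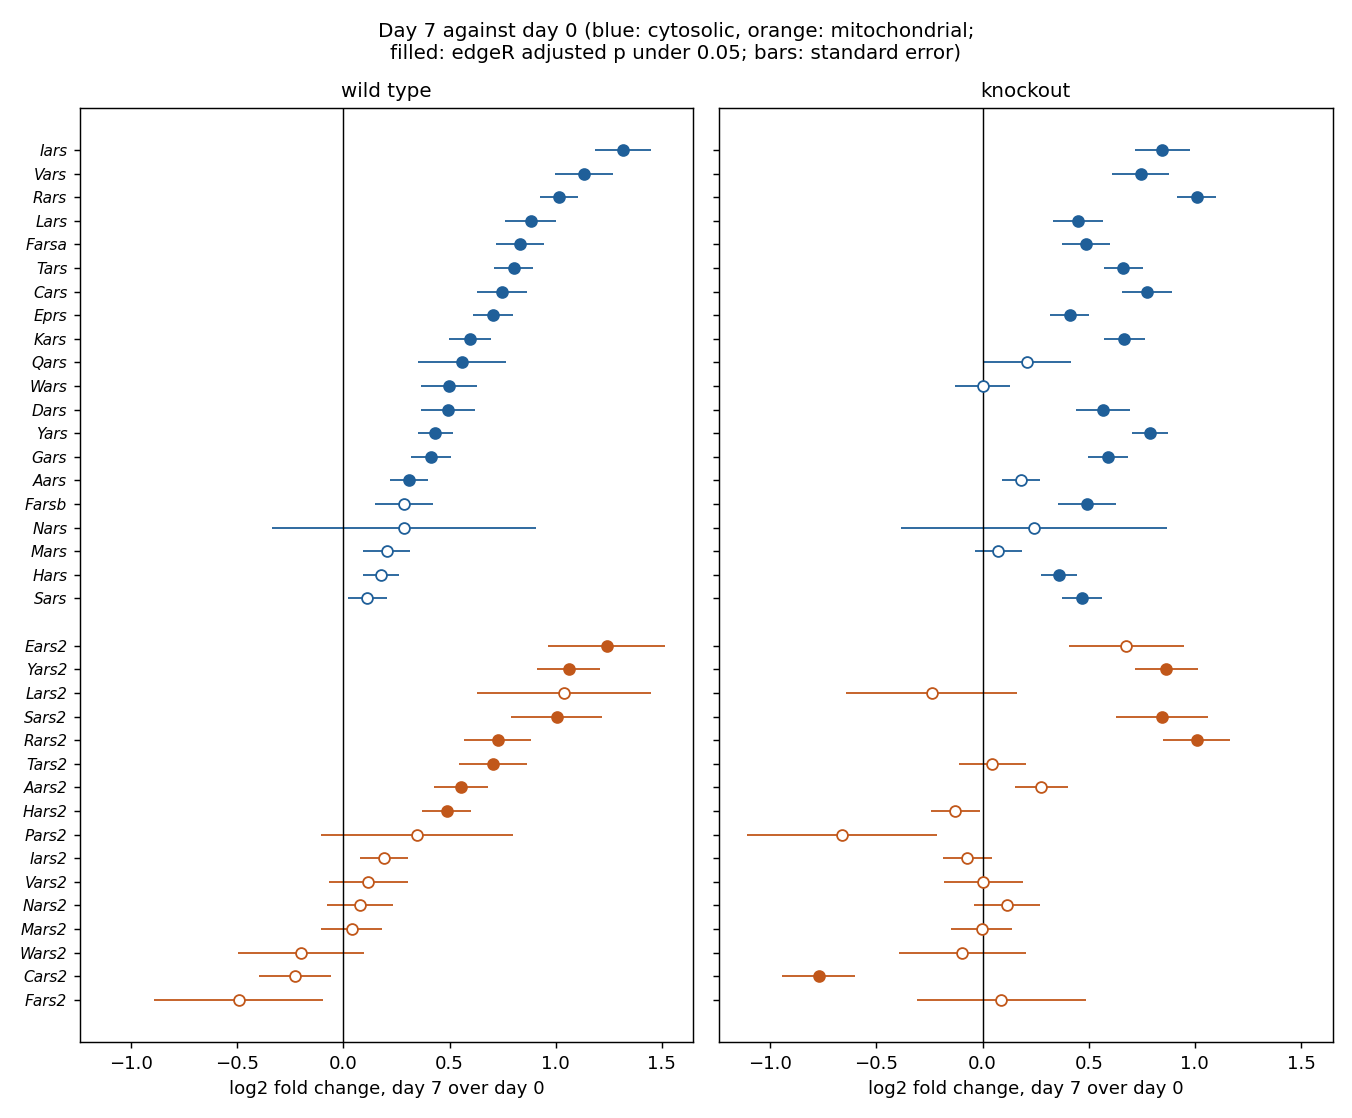
Log2 fold change from day 0 to day 7 of each synthetase in wild type (left) and knockout (right), ordered within each class by the wild-type value. Blue is cytosolic, orange mitochondrial, bars are the standard error, and filled points passed an edgeR adjusted p of 0.05. Of the 20 cytosolic members 15 are filled in either panel, and of the 16 mitochondrial ones drawn 7 in wild type and 4 in knockout, of which Cars2 lies below 0.

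The test of whether the day 7 change differed between genotypes, the interaction, called 0 of 20 cytosolic members, 6 of them with an unadjusted p under 0.05. Of the 17 mitochondrial members it called 1 lower and 0 higher, where 7.39% of all genes tested were called lower and 6.08% higher. The called gene was Hars2, the mitochondrial histidine enzyme. Wild-type libraries went from 24.4 and 24.6 to 36.3 and 32.4 CPM, and knockout libraries from 27.1 and 31.4 to 27 and 26.5 CPM, an interaction of -0.62 ± 0.16 on the log2 scale (edgeR adjusted p = 0.033). The wild-type days did not overlap, and in knockout both day 7 libraries lay just below both day 0 libraries. Between these days 79.7% of all genes tested did not overlap in wild type and 76.2% in knockout. The call was lost without any one of 7 of the 8 libraries of these days, the exception being knockout replicate 1 of day 0, with an adjusted p of up to 0.13. Its cytosolic partner Hars had an interaction of 0.18 ± 0.12 (adjusted p = 0.36). Tars2 came next among the mitochondrial members, at -0.66 ± 0.22 (adjusted p = 0.080), and was called when day 21 was left out of the fit (-0.64, adjusted p = 0.011), as it was without either wild-type replicate of day 21. The fit that left out day 21 also called Iars at -0.45, Sars at 0.37 and Yars at 0.37, and 24.8% of all genes tested. DESeq2 called 2 cytosolic members, Sars and Yars, and without knockout replicate 1 of day 7 edgeR called 2, Vars and Wars. The median interaction was -0.26 for the mitochondrial class, with 13 of 17 members below 0, against -0.09 for the cytosolic class and 0.01 for all genes tested.

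Lists of genes that work with the synthetases were compared with the shares of all genes given above for the same interval, 25.8% higher and 21.2% lower in wild type and 24.7% and 22.2% in knockout. Of 12 partners of tRNA charging 4 rose and 2 fell in wild type and 2 rose and 2 fell in knockout, with medians of 0.15 and 0.01, near those shares; Ptrh2, a peptidyl-tRNA hydrolase, rose in both (0.96 and 1.13). Of the complex scaffold genes, Aimp2 rose in wild type (log2 fold change 0.62, edgeR adjusted p = 0.0014) and Aimp2 and Eef1e1 in knockout (0.99 and 0.92, adjusted p = 6.9e-05 and 0.0015), so 1 and 2 of 3 were called. Of 7 cytosolic elongation factors, which deliver charged transfer RNA to the ribosome (Eef1a1 and Eef1a2), recharge that delivery factor or act in later steps of elongation, 4 rose in wild type and 5 in knockout. These counts include Eef1a2, the form of mature muscle, at 0 to 0.0608 CPM at day 0 and 1.10 to 1.83 CPM at day 7. With nearly no counts at day 0 it passed the filter on low counts through later libraries, so its call adds no support. Of 9 mitochondrial translation factors 4 rose and 1 fell in wild type and 2 rose in knockout, led in both by Tufm, the mitochondrial elongation factor (0.76 and 0.88, adjusted p = 0.00055 and 0.00020). Of 78 mitochondrial ribosomal protein genes 28 rose and 1 fell in wild type, and 47 rose and 1 fell in knockout, with medians of 0.27 and 0.46. The knockout count of this list was above the wild-type count and that of mitochondrial synthetases below it, and neither difference of counts was tested. Gene by gene, the interaction test called 1 of these 78 genes higher and 0 lower, where 6.08% and 7.39% of all genes tested were. Of the 17 mitochondrial synthetases it called 1 lower and 0 higher. Of 24 amino acid response genes, 7 rose and 10 fell in wild type and 11 rose and 5 fell in knockout, the 7 rises in wild type and 5 falls in knockout being near the shares of all genes. Atf4 itself fell, by 0.85 on the log2 scale in wild type (edgeR adjusted p = 0.00046) and by 0.46 in knockout (adjusted p = 0.014). These are RNA values, and a link between Atf4 and the synthetase values was not tested.

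Markers of other cells moved with the day as well. The 6 markers of muscle fibres were detected in each group, with summed levels of 60.1 to 94.2 TPM at day 0 and 1654 to 3463 TPM at day 7. Of the leukocyte markers, Lyz2, which made up nearly all of their summed level, was at 2027 to 3508 TPM at day 0 and 320 to 481 TPM at day 7. The macrophage markers C1qa and Cd68 went the other way, from 0.124 to 0.297 TPM up to 4.25 to 21.8 TPM and from 3.30 to 4.52 TPM up to 8.41 to 18.9 TPM, and Ptprc was at most 0.0422 TPM and then 0.241 to 3.48 TPM. The 4 Schwann cell markers summed to 584 to 801 TPM and then 101 to 153 TPM. The 5 red blood cell markers summed to 3121 to 3128 TPM and then 793 to 1073 TPM in wild type. In knockout their sums overlapped, at 743 to 782 TPM and then 329 to 765 TPM. The 4 smooth muscle markers went from 5029 to 5042 TPM down to 2122 to 2136 TPM in wild type, and from 7581 to 7630 TPM down to 3132 to 3148 TPM in knockout. These sums were mostly Acta2, and Rgs5 of the same list went up in both genotypes (30.6 to 35.1 and then 62.8 to 80.6 TPM in wild type). Skin markers in wild type went from 165 to 174 TPM down to 7.77 to 19.7 TPM, with Krt10 overlapping between days, and in knockout from 1.47 to 1.79 TPM up to 3.95 to 5.29 TPM. Fibro-adipogenic markers summed in knockout to 5313 to 5333 TPM and then 8883 to 9021 TPM, and in wild type to 7434 to 7571 TPM and then 7474 to 7894 TPM. Within that list Col1a1 went up in both genotypes (482 to 560 and then 5573 to 5923 TPM in knockout), while Dcn (4639 to 4725 and then 2631 to 3095 TPM in knockout) and Cd55 went down in both. The part of these shifts in the synthetase values was not tested.

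Before injury the knockout libraries had higher levels of some synthetases of both classes. In knockout against wild type at day 0, 4 cytosolic members rose and 1 fell, and 3 mitochondrial members rose and 0 fell, where 14.8% of all genes tested rose and 12.6% fell. With 20% of cytosolic and 17.6% of mitochondrial members higher, the shares were near those of all genes. The median log2 difference was 0.11 for the cytosolic class and 0.26 for the mitochondrial class, against 0.00 for all genes tested.

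Among the cytosolic members Wars was at 50.2 and 51.7 CPM in the wild-type libraries and at 71.3 and 77.6 CPM in the knockout libraries (log2 difference 0.55 ± 0.13, edgeR adjusted p = 0.013). Lars, for leucine, was at 49.2 and 48.3 against 63.6 and 73.1 CPM (0.49 ± 0.12, adjusted p = 0.013), and Aars, for alanine, at 136 and 138 against 171 and 183 CPM (0.37 ± 0.09, adjusted p = 0.014). Eprs was at 216 and 219 against 254 and 274 CPM (0.28 ± 0.09, adjusted p = 0.048). Wars, Lars, Aars and Eprs each had both knockout libraries above both wild-type libraries, where 75.1% of all genes tested did not overlap, in either direction. Yars went against them, at 68.7 and 66.6 CPM in wild type and 56.3 and 53.2 CPM in knockout (-0.31 ± 0.08, adjusted p = 0.022). Its mitochondrial partner Yars2 overlapped between genotypes, at 19.2 and 19.7 against 16.4 and 20.1 CPM (-0.09 ± 0.15, adjusted p = 0.69). Gars and Kars had log2 differences of 0.17 ± 0.09 (adjusted p = 0.20) and -0.12 ± 0.10 (adjusted p = 0.41).

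The mitochondrial members called higher in knockout at day 0 included Aars2 and Tars2. Aars2 was at 13.3 and 13.4 CPM in wild type and 18.4 and 21.8 CPM in knockout (log2 difference 0.59 ± 0.13, edgeR adjusted p = 0.0079), so both alanine enzymes were higher. Tars2 was at 17.9 and 18.9 against 26.1 and 27 CPM (0.53 ± 0.16, adjusted p = 0.032), whereas Tars overlapped between genotypes with a log2 difference of 0.02 ± 0.09 (adjusted p = 0.91). Lars2, the partner of Lars, was at 8.73 and 19.8 against 31.6 and 29.6 CPM, and with its wide wild-type spread did not pass the test (1.10 ± 0.41, adjusted p = 0.076). Wars2, the partner of Wars, had a log2 difference of -0.34 ± 0.30 (adjusted p = 0.44).

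These day 0 calls rested on few libraries. The call of Eprs was lost without any one of the 8 libraries of days 0 and 7, and those of Yars and Tars2 without any one of the 4 of day 0 (adjusted p up to 0.24). No cytosolic member was called without wild-type replicate 1, wild-type replicate 2 or knockout replicate 2 of day 0, and no mitochondrial member without wild-type replicate 1 or knockout replicate 2. Without knockout replicate 1 of day 0 there were 3 cytosolic calls, and without either wild-type replicate of day 21 there were 7 mitochondrial calls. In a fit with no day 21 library, added after the data were seen, 9 cytosolic and 6 mitochondrial members were called, the added ones being Dars and Hars (lower), Iars, Mars, Cars2, Ears2 and Iars2 (higher). That fit called 38.9% of all genes tested. With nothing but the uninjured libraries fitted, 13 cytosolic and 7 mitochondrial members were called, and 49.5% of all genes.

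In the amino acid response list 0 of 24 genes rose and 10 fell in knockout at day 0, where 14.8% of all genes rose and 12.6% fell, with a median log2 difference of -0.37. Pycr1, an enzyme of proline synthesis, was at 10.1 and 11.9 CPM in wild type and 2.32 and 2.54 CPM in knockout (-2.18 ± 0.20, edgeR adjusted p = 0.00022). Nupr1, a stress-induced transcription cofactor, differed by -1.10 ± 0.16 (adjusted p = 0.0012) and Eif4ebp1, a translation inhibitor, by -0.74 ± 0.15 (adjusted p = 0.0054). Asns, which makes asparagine, was at 22.1 and 21.3 against 14.9 and 13.9 CPM. Of the 7 cytosolic elongation factors 4 fell, Eef1b2, Eef1d and Eef1g among them, and 0 rose. Of the 78 mitochondrial ribosomal protein genes 10 fell and 0 rose, and these 12.8% were near the 12.6% of all genes that fell. Eef1e1 of the complex scaffold also fell (-0.58 ± 0.17, adjusted p = 0.030). Tarsl2, a cytosolic threonine synthetase outside the member rule, rose from 4.76 and 3.76 CPM to 13.3 and 13.4 CPM (1.66 ± 0.28, adjusted p = 0.0026), while Tars did not pass the test.

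Other cell markers differed between genotypes at day 0 too. Among leukocyte markers Lyz2 was at 2027 to 2043 TPM in wild type and 3401 to 3508 TPM in knockout, Itgam at 0.365 to 0.55 TPM and 0.168 to 0.259 TPM, C1qa overlapped between genotypes, and Cd3e was at 0 in both. The 5 red blood cell markers summed to 3121 to 3128 TPM and 743 to 782 TPM, and the 4 smooth muscle markers to 5029 to 5042 TPM and 7581 to 7630 TPM, within which Rgs5 was lower in knockout. Fibro-adipogenic markers summed to 7434 to 7571 TPM and 5313 to 5333 TPM, with Pdgfra higher in knockout and Cd55 overlapping. Schwann markers summed to 584 to 616 TPM and 789 to 801 TPM. The 5 skin epithelium markers summed to 165 to 174 TPM in wild type and 1.47 to 1.79 TPM in knockout, with Krt14, Krt5 and Krt15 at 0 in knockout. The muscle stem cell markers summed to 796 to 799 TPM and 591 to 612 TPM. Of these 10 genes 8 were lower in knockout without overlap, where 75.1% of all genes tested did not overlap by CPM, in either direction. Itga7 overlapped, and Myod1, a factor of activated muscle stem cells, was higher at 122 to 132 TPM against 79.7 to 92.6 TPM. The part of these differences in the synthetase values was not tested.

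At day 7 no synthetase differed between genotypes by the edgeR test, with 0 of 37 called where 1.76% of all genes tested were. Of the members 2 of each class had an unadjusted p under 0.05. DESeq2 called 1 cytosolic member, Gars. Gars was at 164 and 163 CPM in the wild-type and 218 and 200 CPM in the knockout libraries (log2 difference 0.36 ± 0.09, edgeR adjusted p = 0.099). These values did not overlap, and neither did those of 47.6% of all genes tested. Gars was called in the fit with no day 21 library (adjusted p = 0.012), which called 7.46% of all genes. It was also called without wild-type replicate 1 of day 21 (adjusted p = 0.044) and without wild-type replicate 2 of day 21 (adjusted p = 0.042). Kars, the other gene for both compartments, differed by -0.04 ± 0.10 (adjusted p = 0.90). Among the amino acid response genes Asns was higher in knockout at day 7, at 20.3 and 21.8 against 37.2 and 37 CPM (0.82 ± 0.12, adjusted p = 0.015), and Slc7a5, a carrier of large neutral amino acids, was lower (-0.72 ± 0.14, adjusted p = 0.038).

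**Figure D3:**
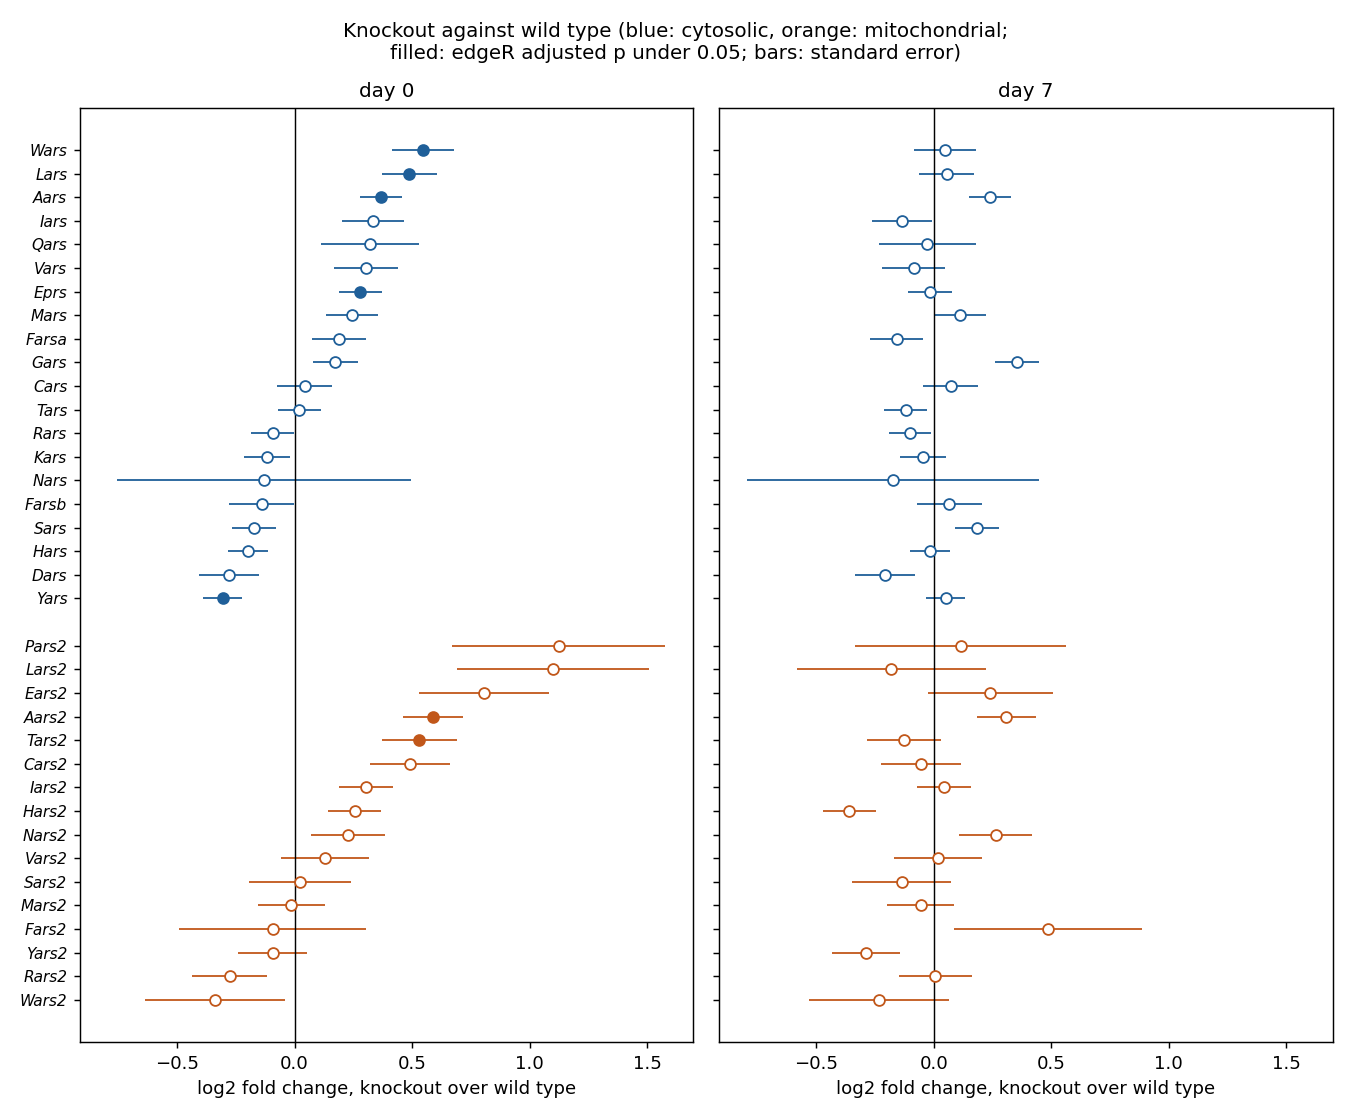
Log2 difference of knockout over wild type for each synthetase at day 0 (left) and day 7 (right), ordered within each class by the day 0 value. Blue is cytosolic, orange mitochondrial, bars are the standard error, and filled points passed an edgeR adjusted p of 0.05. At day 0 the filled members are Wars, Lars, Aars and Eprs above 0, Yars below 0, and Aars2 and Tars2 above 0. At day 7 none is filled.

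At day 21 by label, 0 of 37 members differed between genotypes, where 0.0126% of all genes tested did. In this edgeR test 3 cytosolic members and 1 mitochondrial member had an unadjusted p under 0.05, and DESeq2 called 0. Without the 2 libraries whose Sesn2 level goes against the label, which leaves 1 library per genotype assumed to vary like the other groups, Dars (-0.50, adjusted p = 0.011) and Nars (1.79, adjusted p = 0.024) were called. Leaving out wild-type replicate 1 alone gave the same calls, at -0.57 and 1.57. These fits called 7.29% and 5.24% of all genes tested, so 2 of 37 members lies near the background. Nars is the member whose wild-type replicates of day 21 were at 50.7 and 9.44 CPM.

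Over both genotypes together, most cytosolic synthetases were lower at day 21 than at day 7. Of 20 cytosolic members 15 fell and 1 rose, where 28.4% of all genes tested fell and 28.4% rose, and of 17 mitochondrial members 7 fell and 1 rose. The median log2 fold changes were -0.37 and -0.18, against 0.01 for all genes tested. The comparison with day 0, which uses the same day 21 libraries, had 9 cytosolic members higher and 1 lower, and 3 mitochondrial members higher and 2 lower, where 25% of all genes tested were higher and 20.8% lower. Its medians were 0.18 for the cytosolic class, -0.15 for the mitochondrial class and 0.02 for all genes tested. The cytosolic counts against day 0 were 9 to 12 whichever library was left out. The mitochondrial count of 5 went to 1, Yars2, without wild-type replicate 1 of day 0, to 2 without wild-type replicate 2 of day 0, and to 3 without either knockout replicate of day 0, wild-type replicate 1 of day 21 or either knockout replicate of day 21. These counts are of all members called in a fit, so a newly called member can replace a lost one. Without knockout replicate 1 of day 0 the calls of Iars2, Mars2 and Rars2 were lost.

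Rars fell most clearly after day 7, to 51.1 and 55 CPM under the wild-type label and 46.9 and 43.1 CPM under the knockout label, all near its day 0 values of 42.3 to 47.5 CPM (log2 fold change -0.88 ± 0.06 against day 7, edgeR adjusted p = 2.3e-06). Kars fell by 0.66 (adjusted p = 2.2e-05), Gars by 0.53 (adjusted p = 6.7e-05) and Dars by 0.71 (adjusted p = 7.6e-05). Against day 0 the log2 fold changes of these 4 genes were 0.13, -0.03, -0.03 and -0.18, none of them called. Iars behaved otherwise. It was at 70.2 and 73.3 CPM and at 72.2 and 90.7 CPM at day 21, above all 4 day 0 libraries (0.94 ± 0.09 against day 0, adjusted p = 3.2e-05), with -0.14 ± 0.09 against day 7 (adjusted p = 0.21). Tars, Aars and Cars were higher than at day 0 by 0.46, 0.43 and 0.51 on the log2 scale (adjusted p = 0.00028, 0.00040 and 0.00066). Aars went against its class by rising further from day 7 (0.18 ± 0.06, adjusted p = 0.031), a call lost without either wild-type replicate of day 7, knockout replicate 2 of day 7 or knockout replicate 2 of day 21. Mars went against its class by lying below day 0 (-0.25 ± 0.08, adjusted p = 0.023), a call lost without any one of 5 libraries, both wild-type replicates and knockout replicate 2 of day 0, wild-type replicate 1 and knockout replicate 2 of day 21. The fall of Cars after day 7 (-0.25) was likewise lost without any one of 5 libraries (adjusted p up to 0.12).

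Among the mitochondrial members Rars2 fell furthest after day 7. It was at 11.2 and 15.6 CPM and at 11.4 and 10.5 CPM at day 21, below its 4 day 7 libraries of 28 to 28.7 CPM (log2 fold change -1.23 ± 0.11, edgeR adjusted p = 9e-06) and lower than at day 0 (-0.36 ± 0.11, adjusted p = 0.023). Sars2 fell by 1.09 (adjusted p = 0.00015), Tars2 by 0.64 (adjusted p = 0.00071), Hars2 by 0.45 (adjusted p = 0.00080), Yars2 by 0.49, Ears2 by 0.60 and Aars2 by 0.31. Yars2 was higher than at day 0 (0.47 ± 0.10, adjusted p = 0.0044), at 21.7 to 29.4 CPM in the 4 day 21 libraries against 16.4 to 20.1 CPM. Iars2 and Mars2 were higher than at day 0 by 0.25 and 0.32 (adjusted p = 0.029 and 0.024), and Hars2 lower (-0.27, adjusted p = 0.020). The fall of Ears2 after day 7 was lost without any one of 4 libraries, wild-type replicate 1 and knockout replicate 2 of day 7 and replicate 1 of either genotype of day 21. Mars2 also went against its class after day 7 (0.31 ± 0.10, adjusted p = 0.024), a call lost without replicate 1 of wild type or knockout of day 7 or wild-type replicate 1 of day 21. Of the 78 mitochondrial ribosomal protein genes 75 fell and 1 rose from day 7 to day 21, where 28.4% of all genes tested fell and 28.4% rose. Of the 9 mitochondrial translation factors 6 fell, and all 3 scaffold genes fell.

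Cell markers moved over these weeks too. Muscle fibre markers summed to 1654 to 3463 TPM at day 7 and 224 to 511 TPM at day 21, with Myh4 overlapping within each genotype, and Schwann markers to 101 to 153 TPM and 253 to 361 TPM. Red blood cell markers summed to 329 to 1073 TPM and 1328 to 3552 TPM. Leukocyte markers summed to 345 to 510 TPM and 708 to 1016 TPM, but C1qa and Cd68 of that list were lower at day 21. Skin markers summed to 3.95 to 19.7 TPM and 28.8 to 104 TPM, with Krt10 lower at day 21 under the wild-type label. Muscle stem cell markers summed to 638 to 793 TPM and 1072 to 1363 TPM, but within each genotype Myf5, Cxcr4 and Itga7 of that list were lower at day 21 and Pax7 overlapped. Their part in the synthetase values of day 21 was not tested.

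**Figure D4:**
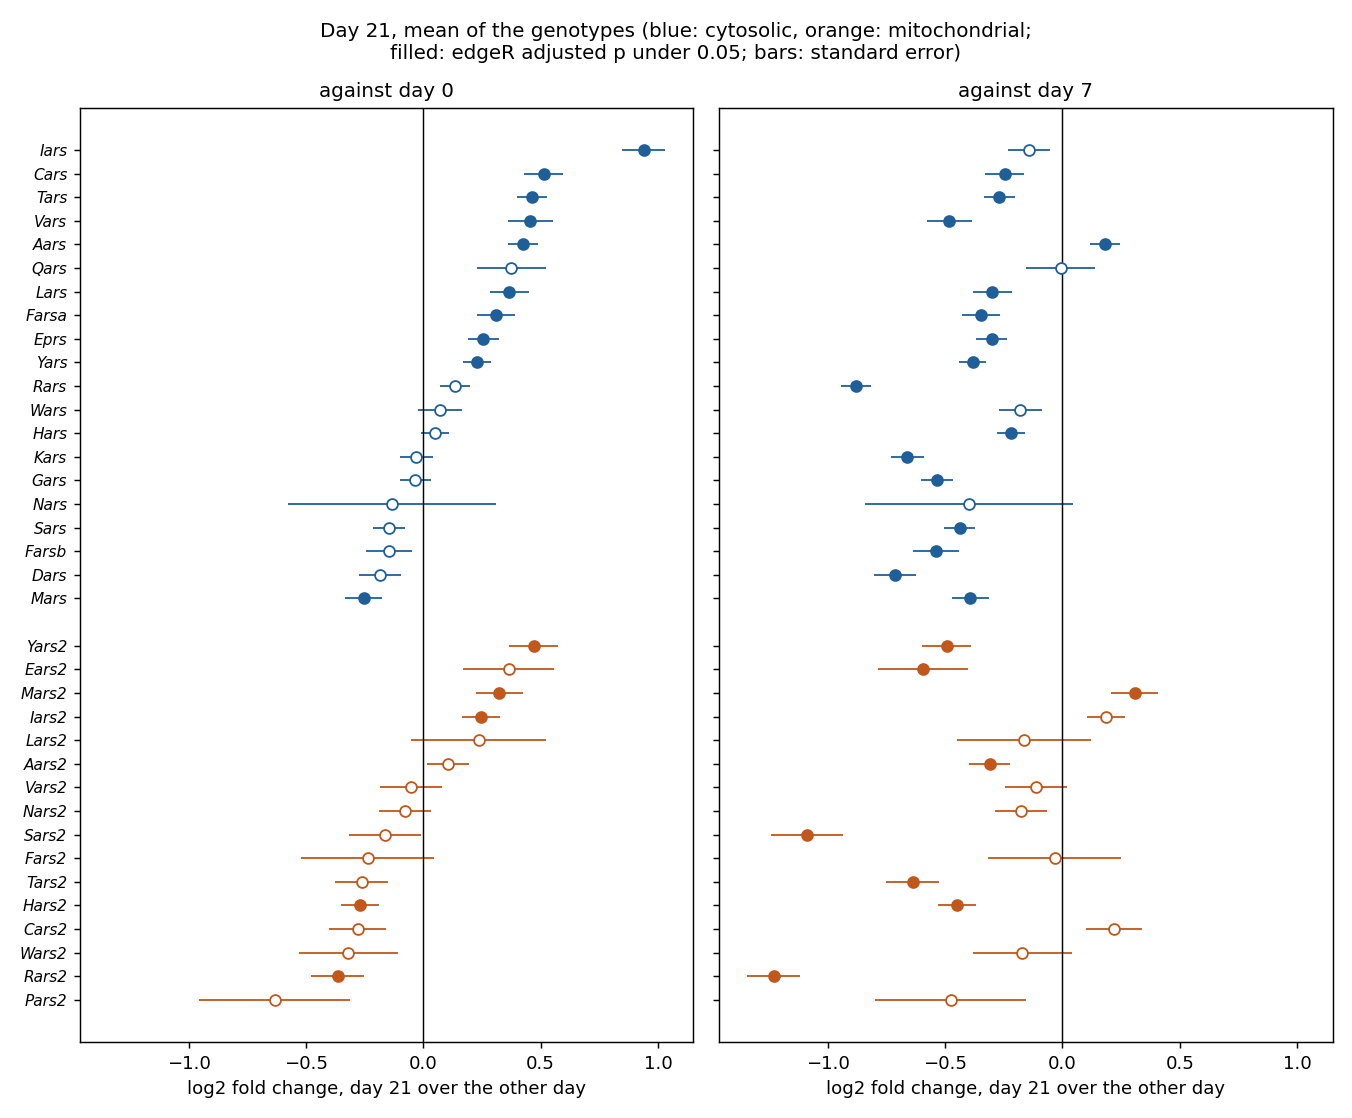
Log2 fold change of each synthetase at day 21 against day 0 (left) and against day 7 (right), averaged over the genotypes, ordered within each class by the left panel. Blue is cytosolic, orange mitochondrial, bars are the standard error, and filled points passed an edgeR adjusted p of 0.05. Iars is highest on the left at 0.94 and Rars2 lowest on the right at -1.23. Both panels use the same 4 day 21 libraries, so their values are not independent.

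For Eprs the direction after day 7 depended on the unit. By counts it fell from 358, 352, 338 and 364 CPM at day 7 to 275, 284, 271 and 316 CPM at day 21 (log2 fold change -0.30 ± 0.07, edgeR adjusted p = 0.0027). In TPM, which divides by the length of the transcripts assigned, it was at 175, 170, 151 and 160 at day 7 and at 157, 168, 185 and 225 at day 21, and limma on log2(TPM + 1) gave 0.15 (adjusted p = 0.10). With an offset for that length in the edgeR fit, added after the data were seen, the value was 0.24 (adjusted p = 0.013), and on the batch-corrected values it was 0.22 (adjusted p = 0.0081). The length implied by count over TPM, relative to wild type at day 0, was 0.735 under the wild-type label and 0.631 under the knockout label at day 21, and 0.954 and 1.01 at day 7, so shorter Eprs transcripts took a larger share of the reads at day 21. By the same measure Eprs had an interaction of genotype and day 7 of -0.56 with the offset (adjusted p = 0.033), against -0.30 by counts (adjusted p = 0.17). Group values of implied length also ranged 1.51-fold for Qars, 1.57-fold for Wars2 and 1.42-fold for Rars2, but replicates of a group lay about as far apart, such as 1.24 and 0.722 for Qars in knockout at day 0. The range was 1.99-fold for Pars2, whose implied length at day 0 was 0.563 and 0.774 of its geometric mean over libraries (scaled to each library's median gene) in wild type and 1.25 and 1.39 in knockout, without overlap, at its low counts. For 10 members, Gars, Hars, Lars, Nars, Tars, Aars2, Cars2, Lars2, Mars2 and Sars2, the implied length on that scale was the same in every group at the digits kept. That of Kars ranged 1.003-fold.

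**Figure D5:**
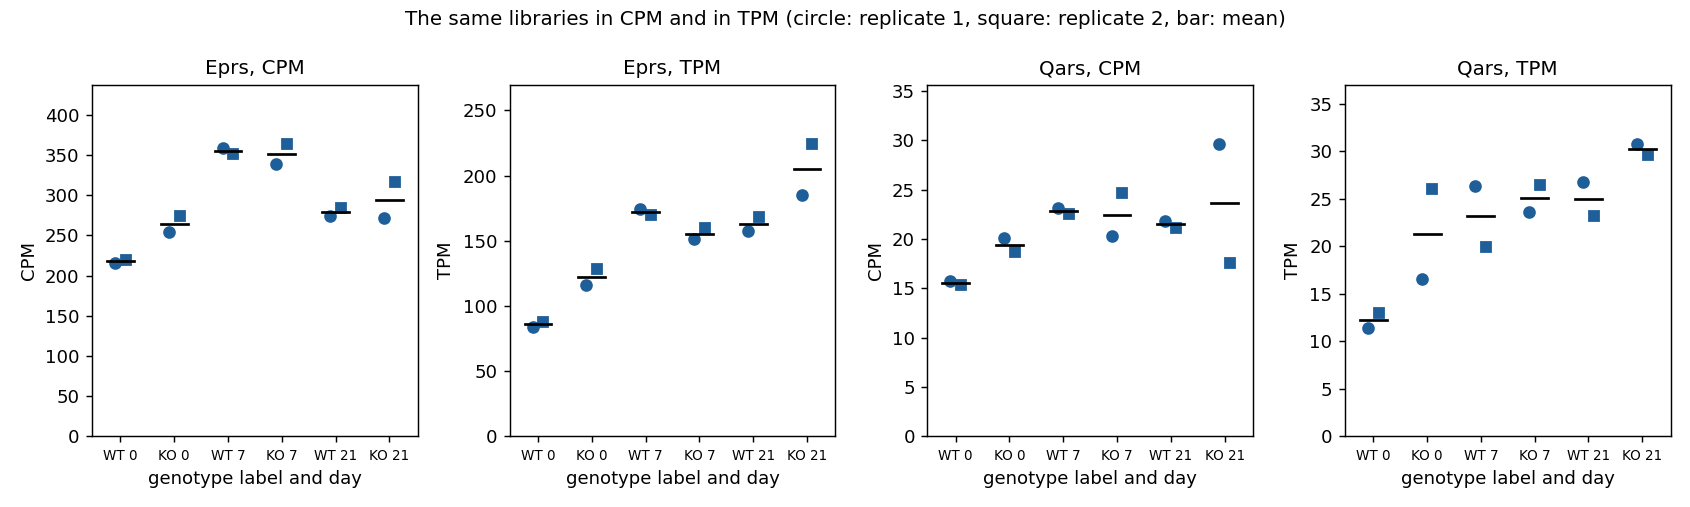
Eprs and Qars in the 12 libraries, each in CPM (counts relative to scaled library size) and in TPM (per transcript length), by genotype label and day. Circles are replicate 1, squares replicate 2 and bars the mean of both. From day 7 to day 21 Eprs is lower in CPM under both labels, whereas in TPM it is slightly lower under the wild-type label and higher under the knockout label, with its highest library, 225 TPM, in knockout replicate 2 of day 21.

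The position of some members limits how their reads can be assigned, since the sources used here do not say that counting used strand. In GENCODE M21 on GRCm38, Hars and Hars2 lie head to head on chromosome 18, chr18:36766528-36783205 on the minus strand and chr18:36783008-36792562 on the plus strand, and share 198 bases. The only member with a called interaction is thus one that overlaps its own cytosolic partner. Mars (chr10:127296221-127311786, minus strand) shares 68 bases with Ddit3, a stress-response gene on the other strand. Aars (chr8:111033144-111057664, plus strand) contains the whole of Exosc6 on its own strand, 1326 bases that some Aars transcripts hold too. Other protein-coding genes overlap members on the opposite strand over 2315 bases (Sgpp2 with Farsb), 2034 bases (Rab3gap2 with Iars2), 984 bases (Naxd with Cars2, the mitochondrial member called lower in knockout by day 7), 920 bases (Nrn1 with Fars2) and 544 bases (Wdr25 with Wars). A processed pseudogene, Gm4849, matches Iars over 1656 bases at 96.0% identity, and another, Gm14780, matches Vars over 333 bases at 90.4% identity. Values of these members are uncertain to the extent that reads were split with those neighbours and copies.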

How the data were processed

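RNA of 12 libraries was sequenced as single-end reads from SMART-Seq v4 cDNA in Nextera XT libraries, per the labels. The authors deposited estimated counts of each gene without normalisation, a table of TPM, and a table of batch-corrected values on the log2 scale whose batch is not named. The submitters' processing notes name kallisto 0.46.1 and the builds mm10 and GRCm38.p6. Members and lists were chosen with earlier results of these data known.

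Estimated counts were rounded, filtered with filterByExpr of edgeR 4.0.16 and scaled by TMM (factors 0.915 to 1.09). The model had one mean per group over the 12 libraries, with edgeR's quasi-likelihood test in its robust form. Tests were adjusted by Benjamini-Hochberg over 15890 genes, and a gene is called at an adjusted p under 0.05. "Rose" and "fell" are used of called genes. The standard error is the log2 fold change over the square root of F. CPM use scaled library sizes, and class means of log2 CPM a prior count of 2. TPM, in which levels of genes were compared, sum per library to 874221 to 883224 over the rows of the table.

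Values are given in each comparison for up to 4 called members per class by adjusted p, for called members moving against their class, for Gars and Kars and for partners of named members in the other compartment. At most 3 called genes per pathway list were named. Genes named outside this rule were chosen after their values were seen. A member and a marker are counted but not reported singly here, and the member is not drawn.

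Alternatives were DESeq2 1.42.0, other size factors, no filter or at least 10 counts in every library, the replicate block, fits on the days compared, limma 3.58.1 on log2 TPM (pseudocount 1 or 0.1, TPM of at least 1 in 2 libraries or no filter) and on the batch-corrected values, calls restricted to log2 fold changes of 1 or more in size, and leaving out libraries. An offset for implied length and a fit with no day 21 library were chosen after seeing the data. Tests were tried on simulated counts. Promoters were those of RefSeq on GRCm38.p6, for which 11 members, 4 of them on chromosome 18, were not used here. Annotation was GENCODE M21, and near copies were sought with BLAST 2.17.0 at 90% identity over at least 300 bases. Depth was 28396862 to 38950614 counts per library. R 4.3.3, Python 3.11.15 and matplotlib 3.10.9 were used.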

Additional observations from a re-analysis of the deposited data

Results flagged for a closer look

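The day 7 change of Hars2 differed between genotypes by the interaction test of edgeR, at -0.62 on the log2 scale (adjusted p = 0.033), with a rise in wild type and no rise in knockout. The adjusted p over the alternatives ran from 0.013 (DESeq2) to 0.13 (without knockout replicate 2 of day 0), and the difference was negative in each. It was the only synthetase so called, and Hars2 shares 198 bases with Hars on the other strand. The part of this overlap in the value was not tested. Implied length of Hars2 also differed between the genotypes at day 0. Groups of 2 libraries allow no test for single outlying libraries.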

How the results depend on the processing

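The replicate numbers do not pair the libraries: deviations of same-numbered libraries from their group means correlated between -0.14 and 0.07 over 15 pairs of groups. The replicate block left 0 mitochondrial members called in the interaction, where Hars2 had an adjusted p of 0.05, and moved no other count by over 1.5 times.

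Calls of genotype at day 0 depended most on the setting. The 5 cytosolic calls were 3 with no filter on low counts or with limma on TPM with no filter, 9 with no day 21 library and 13 with day 0 libraries alone. The 3 mitochondrial calls were 5 with DESeq2 or the batch-corrected values, 6 with no day 21 library and 7 with day 0 libraries alone. At day 7, 1 cytosolic member (Gars) was called by DESeq2, on the batch-corrected values and with no day 21 library. The interaction had 2 cytosolic calls by DESeq2, 3 with the libraries of days 0 and 7 alone, and 1 (Eprs) in the 3 TPM fits, on the batch-corrected values and with the length offset. It had 2 mitochondrial calls with the libraries of days 0 and 7 alone. Without both day 21 libraries whose Sesn2 goes against the label, cytosolic and mitochondrial calls were 8 and 6 at day 0, 1 and 0 at day 7, 2 and 0 at day 21, and 3 and 2 in the interaction, and 2 mitochondrial members differed between days 21 and 0. Against day 0, the 5 mitochondrial calls of day 21 were 3 in the TPM fits.

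Restricted to log2 fold changes of 1 or more in size, cytosolic and mitochondrial calls were 0 and 0 at day 0, 3 and 3 for wild type and 1 and 1 for knockout at day 7, 0 mitochondrial in the interaction, 0 and 0 for day 21 against day 0, and 0 and 2 against day 7. Leaving out 1 library gave 0 to 7 cytosolic and 0 to 7 mitochondrial calls at day 0, 0 to 1 and 0 to 0 at day 7, 0 to 2 and 0 to 0 at day 21, 10 to 15 and 6 to 8 for the wild-type change, 12 to 15 and 3 to 5 for the knockout change, 0 to 2 and 0 to 2 for the interaction, 9 to 12 and 1 to 6 for day 21 against day 0, and 14 to 16 and 6 to 8 against day 7.

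Among members called by counts, the one whose direction turned under an alternative was Eprs from day 7 to day 21: -0.30 by counts, 0.15 in each TPM fit, 0.22 on the batch-corrected values and 0.24 with the length offset. Members not called by counts also turned, such as Wars2 in wild type, at 6.23 CPM (2.18 TPM) on day 0 and 5.42 CPM (3.07 TPM) on day 7. The median log2 change of all genes from day 0 to day 7 in the TPM fits with a filter was 0.24 and 0.28 (wild type) and 0.12 and 0.14 (knockout), against 0.06 and 0.03 by counts and 0.05 and 0.01 on TPM with no filter. Depth limits Pars2, at group means of 1.08 to 2.54 CPM.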
